A study of Mus musculus with 2 samples.

Results

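The fibroblast growth factor (FGF) pathway was described in total RNA from whole livers of B6NCrl mouse embryos at embryonic day 11.5. Its members were chosen by name and not by level, though earlier results of these data were known. They are the protein-coding genes called Fgf with a number, the receptors Fgfr1 to Fgfr4, the decoy-type receptor Fgfrl1, the co-receptor Klb, the adaptors Frs2 and Frs3, and the feedback inhibitors of the Sprouty and Spred families. This gave 36 members of 43346 mouse genes, of which 21474 are protein-coding. The series holds 2 libraries, labelled biological replicates 1 and 2 of 1 group of healthy, untreated embryos of both sexes, with no genetic change named. Replicate 1 came from a pool of 109 embryos, and replicate 2 from another pool, of a size the labels do not give. Each library was made from 10 ng of RNA. With 1 group there was no condition to test, so levels, their order and the difference between the pools are described.

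Secreted FGFs bind receptor tyrosine kinases at the cell surface together with heparan sulphate, a sugar chain on cell surface and matrix proteins. The active receptor phosphorylates the adaptor FRS2, which recruits GRB2 and SOS and starts the RAS and MAP kinase cascade. The cascade induces ETS factors such as Etv4 and Etv5 and its own brakes, among them Dusp6 and the Sprouty and Spred genes. In the embryo, FGFs from the heart field help to start the liver programme in the foregut, and FGF10 from the liver mesenchyme acts on hepatoblasts, the liver progenitors. A small group, FGF11 to FGF14, stays inside the cell and acts on ion channels and the cytoskeleton.

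The receptors and most of the inhibitors were expressed, while most secreted ligands were under the detection threshold. Levels are given in TPM, the number of transcripts of a gene in a fixed total after correction for transcript length, and a gene counted as detected when each library gave it at least 1 TPM. By that rule 17 of the 36 members were detected, beside 56.6% of all protein-coding genes. Where a pair of values is given, replicate 1 comes first. All 4 signalling receptors were detected, as were Fgfrl1, Klb, both adaptors, all 3 Sprouty genes measured and 2 of 3 Spred genes. Of the 18 secreted ligands 3 were detected, and of the 4 intracellular FGFs 1. The median member stood at 0.78 and 0.835 TPM, beside 2.82 and 2.87 TPM over all protein-coding genes. The 4 receptors summed to 50.9 and 52.7 TPM, the 18 secreted ligands to 7.50 and 8.44 TPM. The receptor sum was thus 6.52 ± 0.39 times the ligand sum (SD, n = 2). That SD covers the spread of the libraries only and not the choice of measure. The mean sums were 51.8 and 7.97 TPM here, but 54.7 and 10.9 TPM by posterior means.

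**Figure D1:**
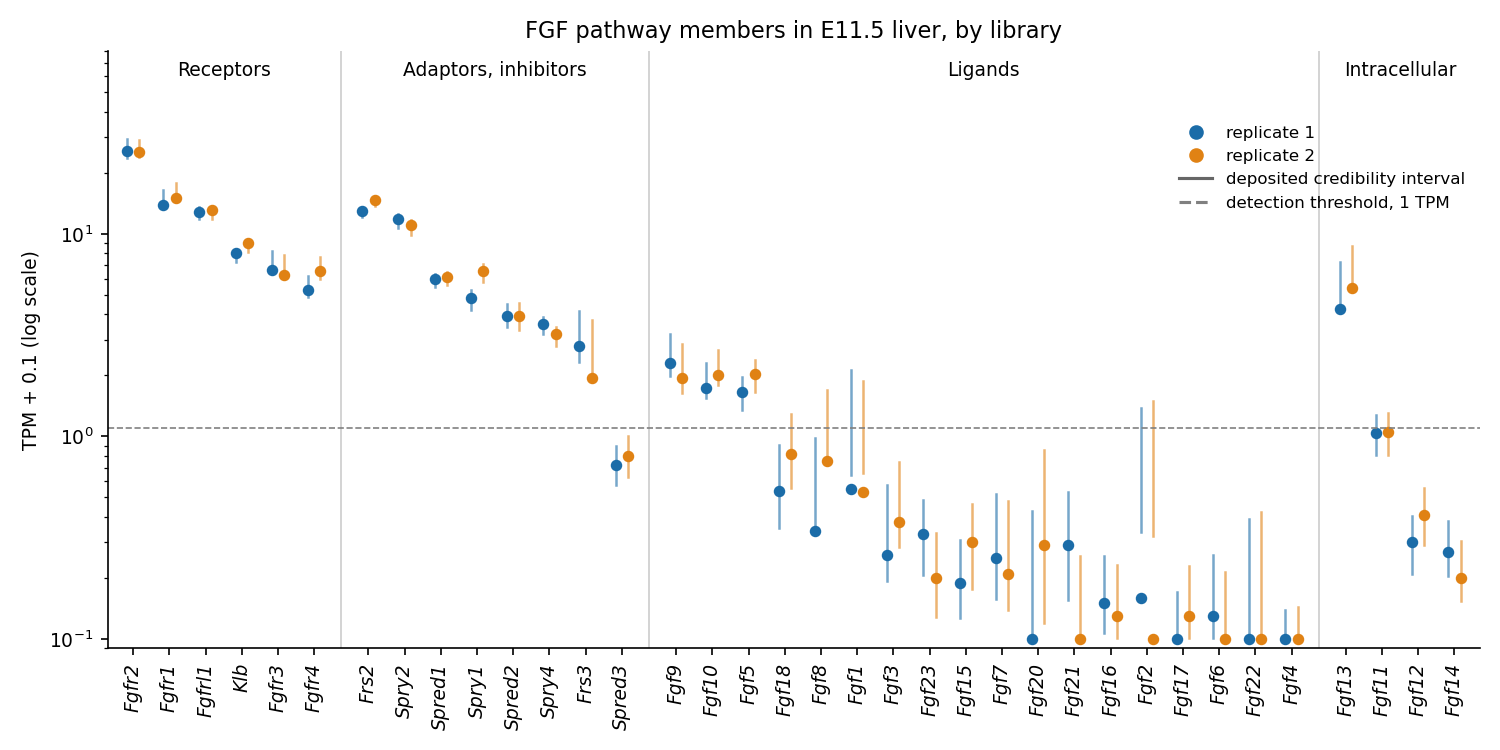
TPM of each of the 36 members in each library, with 0.1 added and on a log axis; points are libraries, vertical lines the deposited credibility intervals, and the dashed line the detection threshold. The receptors and all adaptors and inhibitors but Spred3 lie above the line; of the Fgf genes, Fgf9, Fgf10, Fgf5 and Fgf13 do.

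The libraries held 34344230 and 31477397 estimated counts, of which the members took 0.0344% and 0.0340% of those on mouse genes. The label of the tissue was checked against marker genes: all 7 hepatoblast markers and all 6 erythroid markers were detected, with Afp at 4698 and 5457 TPM. All 7 mesenchyme, 5 endothelial, 4 macrophage and 3 megakaryocyte markers were detected too, as were 4 of 5 mesothelial ones. None of 5 gut, pancreas and lung markers was detected, and of 5 neural markers only Tubb3 was. Heart muscle markers separated the pools: all 11 were higher in replicate 1 and 10 of them at least 2-fold, with summed levels of 324 and 142 TPM. Single heart markers ranged from 1.58 to 119 TPM in replicate 1 and from 0.78 to 58.9 TPM in replicate 2, so none was at 0. In bulk tissue fewer cells of a type and less RNA per cell cannot be told apart.

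Among the ligands, the 3 secreted genes above threshold were Fgf9, Fgf10 and Fgf5. Fgf9, a ligand made by mesothelium and epithelium in the developing lung, measured 2.21 and 1.84 TPM (110 and 80 counts). Fgf10, which signals from mesenchyme to epithelium, measured 1.64 and 1.91 TPM (170 and 173 counts). Fgf5, known as a brake on hair growth, measured 1.56 and 1.94 TPM (97 and 105 counts). The libraries disagreed on the order of these 3 genes: Fgf9 was the highest in replicate 1 and Fgf5 in replicate 2. Each had the highest level of its subfamily in both libraries, and the 3 together made most of the ligand sum. Fgf10 exceeded Fgf7, the closely related keratinocyte growth factor (0.15 and 0.11 TPM), by 3.03 ± 0.33 on the log2 scale with 0.1 TPM added (SD, n = 2).

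Here and below, 2 genes count as told apart when both libraries gave the same order, their deposited credibility intervals were apart in each library, and the log2 ratio was larger on average than its shift between the libraries. Fgf10 and Fgf7 met this rule. Of 21 pairs of neighbours in the order of all 22 Fgf genes, 3 met it: Fgf13 above Fgf9, Fgf5 above Fgf11 and Fgf1 above Fgf12. The order of the other neighbours is therefore not resolved. The call for Fgf1 is uncertain too, because its deposited intervals lay above its own TPM in both libraries.

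The remaining 15 secreted ligands were below threshold. Fgf18, which acts in skeletal and lung growth, gave 11 and 16 counts (0.44 and 0.72 TPM). Its relative Fgf8, an organiser of gastrulation and limb outgrowth, gave 6 and 15 counts (0.24 and 0.66 TPM), and Fgf17 of the same subfamily gave 0 and 1. Fgf8 and Fgf18 were not told apart.

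Fgf1 and Fgf2, the acidic and basic FGFs that lack a classical signal peptide, differed in counts. Fgf1 had 26 and 38 counts (0.45 and 0.43 TPM) and Fgf2 1 and 0. Their TPM values are uncertain, because the deposited point estimate of both genes lay below its own credibility interval in both libraries. For Fgf1 that interval ran from 0.545 to 2.02 TPM in replicate 1, and for Fgf2 from 0.238 to 1.28 TPM. They were not told apart by the rule. The Fgf2 entry of the deposited tables also includes a noncoding transcript that overlaps other genes, and Fgf2 overlaps Nudt6 on the opposite strand.

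Endocrine FGFs, hormones that need a klotho co-receptor, were scarce. Fgf15, the gut hormone that represses bile acid synthesis, had 4 and 7.68 counts. Fgf21, which the adult liver secretes on fasting, had 4 and 0, where 0 allows up to 0.160 TPM. Fgf23, the phosphate hormone of bone, had 10 and 4. All 3 were below 0.25 TPM in each library, and no order among them was resolved.

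Fgf3, which patterns the inner ear, gave 9 and 14 counts. Fgf16, a heart ligand, gave 2 and 1. Fgf7 gave 4 and 3 counts. Fgf20, which acts in hair and inner ear, gave 0 and 2.04 counts, all on a transcript whose first exon overlaps Micu3 on the other strand. Fgf6, a muscle ligand, gave 1 and 0. Fgf4, the epiblast ligand, and Fgf22, which acts at synapses, had no count in either library. With no count seen, up to 3 counts are possible, which would be 0.0396 and 0.0454 TPM for Fgf4 and 0.298 and 0.341 TPM for the short Fgf22. The limit was thus tighter for Fgf4 than for Fgf22.

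Of the intracellular FGFs, Fgf13 led. It measured 4.17 and 5.30 TPM (254 and 280 counts), the highest level among the 22 Fgf genes in both libraries. Fgf11 lay just under the threshold at 0.94 and 0.95 TPM (60 and 56 counts). Fgf12 followed with 15 and 21 counts and Fgf14 with 15 and 8. Fgf13 was told apart from Fgf11, the log2 ratio of Fgf11 to Fgf13 being -2.20 ± 0.23 (SD, n = 2). One transcript, Fgf13-201, carried 86.4% of the gene's expression in replicate 1 and 84.8% in replicate 2. By posterior means its share was lower, at 62.7% and 63.4%. Fgf13 was also told apart from Fgf9, the secreted ligand with the highest mean.

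Fgfr2 (chr7:130162451-130266263 for all transcripts but the one discussed below), the receptor that answers FGF7 and FGF10 in its epithelial form, had the highest level of all 36 members in both libraries, at 25.4 and 25.1 TPM. It exceeded 77.9% of protein-coding genes. Fgfr1 (chr8:25513654-25575718), the main receptor of many mesenchymal cells, followed at 13.8 and 14.9 TPM. Fgfr3 (chr5:33721724-33737068), best known for limiting bone growth, stood at 6.56 and 6.18 TPM. Fgfr4 (chr13:55152640-55168759), the hepatocyte receptor for FGF15, stood at 5.16 and 6.42 TPM. The order of Fgfr2 above Fgfr1 and of Fgfr1 above Fgfr4 held in both libraries, with log2 ratios of 0.81 ± 0.09 and 1.30 ± 0.14 (SD, n = 2). Fgfr3 and Fgfr4 were not told apart: Fgfr3 was the higher in replicate 1 and Fgfr4 in replicate 2.

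The lead of Fgfr2 rested in part on 1 transcript. Fgfr2-217 had the largest share of the gene, 32.0% in replicate 1 and 32.5% in replicate 2 (8.15 TPM in both), although the 2 exons at its start lie inside exons of Ctbp2, a co-repressor gene on the same strand. Those exons, between 133081757 and 133123350 on chromosome 7, begin 2815494 bases beyond the last base of any other Fgfr2 transcript, and the transcript lacks the third Ig exons described below. Ctbp2 itself measured 32.6 and 38.4 TPM. Without Fgfr2-217, the other Fgfr2 transcripts summed to 17.28 and 16.98 TPM. They were still above Fgfr1 in both libraries, but by 0.25 ± 0.10 on the log2 scale (SD, n = 2). That remaining lead depends on the measure. Transcripts that retain an intron held 20.1% and 14.6% of Fgfr2. By protein-coding transcripts alone, Fgfr2 without Fgfr2-217 was below Fgfr1 in replicate 1 and above it in replicate 2. By estimated counts, which are not scaled for length, it was below Fgfr1 in both. How many of the reads given to Fgfr2-217 came from Ctbp2 was not tested.

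Fgfrl1, which binds FGFs but has no kinase domain, measured 12.77 and 12.95 TPM, a little under Fgfr1 in both. Their log2 ratio was 0.16 ± 0.07 (SD, n = 2), and the rule told them apart. That order rests on Fgfr1 transcripts that are not protein-coding, most of which retain an intron. Protein-coding transcripts carried 86.3% and 79.6% of Fgfr1, or 11.91 and 11.89 TPM, but all of Fgfrl1. By coding transcripts alone, Fgfrl1 was thus the higher in both libraries. Klb, or beta-klotho, which joins FGFR4 and FGFR1 to endocrine FGFs, measured 7.91 and 8.93 TPM. Klb exceeded Fgfr4 in both libraries by 0.54 ± 0.10 on the log2 scale (SD, n = 2). Its partner ligands Fgf15 and Fgf21 were the scarce genes given above.

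Receptors differ in which ligands they bind through part of the third immunoglobulin (Ig) domain, which is encoded by either of a pair of exons. The upstream exon gives the IIIb form, typical of epithelium, and the downstream exon the IIIc form, typical of mesenchyme. A search of the annotation for 2 exons used in turn between the same splice sites found such a pair in Fgfr1, Fgfr2 and Fgfr3, and none in Fgfr4. The pair of Fgfr3 is shown as the example, because the shares below sum whole transcripts sorted by which of such exons they hold. On GRCm38 its IIIb exon lies at chr5:33731281-33731431 and its IIIc exon at chr5:33732117-33732261, both on the plus strand, and they are 151 and 145 bases long. Both are given 5′ to 3′ in the sense of the transcript. Capitals in IIIb mark bases that do not align to the same base of IIIc.
Fgfr3 IIIb: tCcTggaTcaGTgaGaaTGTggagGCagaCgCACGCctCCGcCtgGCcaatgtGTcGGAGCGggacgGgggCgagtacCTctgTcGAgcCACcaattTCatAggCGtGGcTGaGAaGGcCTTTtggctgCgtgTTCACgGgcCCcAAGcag
Fgfr3 IIIc: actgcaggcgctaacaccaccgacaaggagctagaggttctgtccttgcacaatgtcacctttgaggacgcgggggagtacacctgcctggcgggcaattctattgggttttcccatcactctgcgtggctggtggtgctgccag
The 2 exons aligned with 50.6% identity.

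Transcripts with IIIc outweighed those with IIIb for all 3 receptors in both libraries. For Fgfr1 the IIIb transcripts had 0 TPM and no count in either library, and the IIIc transcripts had 11.9 TPM in each. A count of 0 allows an IIIb share of up to 0.245% of the 1225 counts on both forms in replicate 1 and of up to 0.280% in replicate 2. These limits take in reads outside the exon, which cannot tell the forms apart, so the exon itself sets a looser limit. The deposited posterior means, which never reach 0, put the share at 1.82% and 2.44%.

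Fgfr2 was mixed. Its IIIb transcripts summed to 3.13 and 3.64 TPM, and its IIIc transcripts to 8.17 and 9.68 TPM. IIIb thus made up 27.7% and 27.3%, or 27.5 ± 0.3% (SD, n = 2). Most of the IIIb sum was Fgfr2-208 (1.99 and 2.28 TPM), whose deposited value lay above its own credibility interval in both libraries (upper ends of 1.61 and 2.00 TPM). The rest was Fgfr2-211, whose length differs between the deposited tables and the annotation used here. Only transcripts that hold 1 of the exons enter this share, and they carried 44.4% of the gene's TPM in replicate 1 and 53.0% in replicate 2. The close match of the libraries does not measure the error of the estimate: by estimated counts the mean share was 20.1%.

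Fgfr3 was mixed as well. IIIb transcripts stood at 1.94 and 1.35 TPM, and IIIc transcripts at 3.61 and 3.89 TPM. The IIIb share was 35.0% and 25.8%, or 30.4 ± 6.5% (SD, n = 2). All of the Fgfr3 IIIb signal lay on 1 transcript, Fgfr3-211. Its deposited interval ran from 0.72 to 2.80 TPM in replicate 1 and from 0.07 to 2.03 TPM in replicate 2. The SD of the share does not cover that error. By TPM the IIIb shares of Fgfr2 and Fgfr3 differed by less than the SD of Fgfr3 between the libraries, but by estimated counts the means were 20.1% and 30.4%, which is more than that SD. The IIIb share of Fgfr1 was below both.

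**Figure D2:**
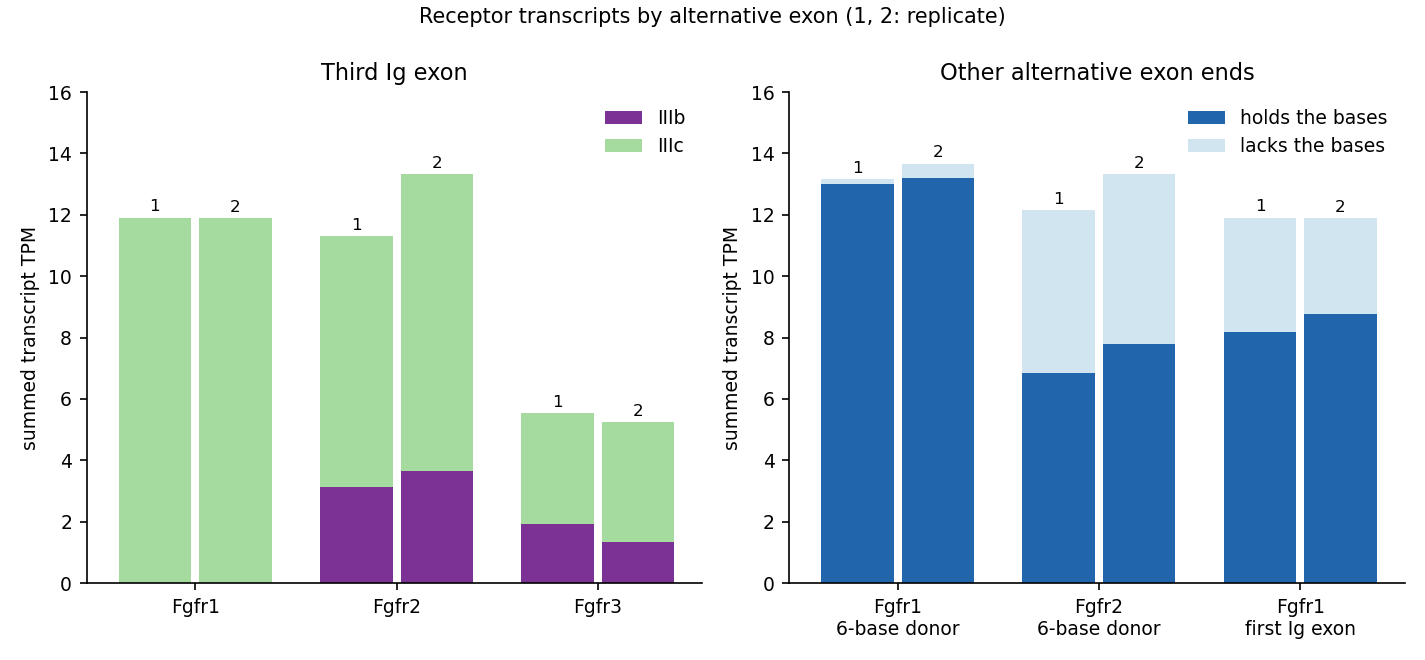
Summed TPM of transcripts that hold each alternative exon or exon end, as stacked bars with 1 bar per library (numbers above the bars). Fgfr1 shows no IIIb in either library. Of the TPM on IIIb and IIIc transcripts together, IIIb made up 27.7% and 27.3% for Fgfr2 and 35.0% and 25.8% for Fgfr3. The right panel shows the 6-base donor of Fgfr1 and Fgfr2 and the first Ig exon of Fgfr1.

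A second alternative, examined after the transcript values were seen, lies at the end of the exon that follows the third Ig exon. A pair of splice donors 6 bases apart decides whether the receptor keeps 6 bases in the stretch just inside the cell membrane that binds FRS2. The last 30 bases of the long exon of Fgfr1 (chr8:25566711-25566913) and Fgfr2 (chr7:130196172-130196374, minus strand) are shown with those 6 bases in capitals.
Fgfr1 long donor: aagagcatccctctgcgcagacagGTAACA
Fgfr2 long donor: aagcgcatccccctgcggagacagGTAACA
The 6 bases are identical in the 2 genes, and 3 of the 30 bases differ. For Fgfr2, transcripts with the 6 bases summed to 6.83 and 7.79 TPM, and those without to 5.33 and 5.53 TPM. The long form made up 57.3 ± 1.6% of the TPM of both forms (SD, n = 2), but 49.8% by posterior means and 49.4% by estimated counts. Both forms were present under each measure, and which of them is the larger is not settled. Only 1 Fgfr1 transcript with the short form is annotated, a target of nonsense-mediated decay, and it had 0.16 and 0.48 TPM.

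The first Ig domain of Fgfr1 is encoded by a 267-base exon at chr8:25555508-25555774, and transcripts that skip it give the shorter beta form. This exon was also examined after values were seen. Transcripts that hold it summed to 8.19 and 8.77 TPM, and those without it to 3.72 and 3.12 TPM. The form with the exon thus made up 71.3 ± 3.5% of the TPM of both forms (SD, n = 2), but 77.3% by estimated counts. The skipping signal came from 1 transcript, Fgfr1-203, whose length in the deposited tables differs from that in the annotation used here. With transcripts of equal length only, which drops Fgfr1-203, the share with the exon was 100%.

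Frs2 (chr10:117069427-117148510), the adaptor that links the receptors to RAS, measured 12.9 and 14.6 TPM. Frs3, its relative, measured 2.69 and 1.84 TPM (109 and 78.9 counts). Frs2 exceeded Frs3 by 2.57 ± 0.50 on the log2 scale (SD, n = 2) and was close to Fgfr1 in level. Frs3 overlaps an antisense gene, Frs3os, listed at 0 and 0.29 TPM. No source used here says whether the counting used the strand.

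All 3 Sprouty genes measured were detected. Spry2 (chr14:105891947-105896819), an inhibitor of RAS and MAP kinase signalling from many receptor kinases, led with 11.7 and 10.9 TPM. Spry1, needed for normal kidney branching, had 4.70 and 6.44 TPM, and Spry4, an inhibitor of the same cascade, 3.50 and 3.11 TPM. The log2 ratio of Spry1 to Spry2 was -1.02 ± 0.39 and that of Spry2 to Spry4 1.75 ± 0.05 (SD, n = 2). Both pairs were told apart. Spry3 was not matched to an annotated gene and was not analysed here.

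Spred proteins hold RAS inactive by bringing neurofibromin to the membrane. Spred1 (chr2:117121374-117182279) measured 5.87 and 6.05 TPM, and Spred2 3.82 and 3.81 TPM. Spred3 stayed under the threshold at 0.62 and 0.70 TPM (59 and 56 counts). Spred1 and Spred2 were told apart, by 0.63 ± 0.03 on the log2 scale (SD, n = 2). Sprouty and Spred genes together summed to 30.2 and 31.0 TPM, below the receptor sum and above the ligand sum in both. Among adaptors and inhibitors 2 of 7 neighbouring pairs were told apart, Spry2 above Spred1 and Frs3 above Spred3, and among receptors with Fgfrl1 and Klb 3 of 5.

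The share of a gene carried by its main transcript was steady between the libraries for some members and not for others. Of the 17 detected members 5 had a single annotated transcript, and 10 of the other 12 had the same main transcript in both libraries. The exceptions were Spry1 and Fgfr3. For Spry1, Spry1-203 carried 81.2% in replicate 1 and 0.05% in replicate 2, and Spry1-201 18.8% and 96.5%. The posterior means were less far apart, at 71.8% and 25.2% for Spry1-203. The deposited intervals of Spry1-203 overlapped between the libraries, from 1.82 to 4.60 TPM and from 0.0002 to 3.26 TPM. For Fgfr3 the main transcript was Fgfr3-209 in replicate 1 (29.6%) and Fgfr3-210 in replicate 2 (32.4%), both IIIc forms. In replicate 1 the IIIb transcript Fgfr3-211 was almost level (29.5%), and by posterior means it was above Fgfr3-209, at 23.7% against 22.1%. Over both libraries Fgfr3-211 had the highest mean share, 25.6%. The deposited intervals of Fgfr3-210 overlapped between the libraries, from 0.03 to 1.53 TPM and from 0.57 to 3.24 TPM. Frs3-201 moved from 62.3% to 86.6%, Spred2-202 from 77.4% to 53.6% and Fgfrl1-201 from 76.9% to 89.8% between replicates 1 and 2. By posterior means Frs3-201 was steady, at 51.1% and 49.9%.

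Other genes of the pathway were taken from a list that was not picked by level, though earlier results of these data were known. Of the 53 genes on that list 48 were detected. All 18 genes of the signal chain were, with a median of 45.4 and 47.6 TPM. Among the 3 highest were the MAP kinase kinase Map2k2 (157 and 161 TPM) and the RAS gene Hras (85.2 and 94.0 TPM). In both libraries the median of the signal chain was above the level of every receptor and above the median of all protein-coding genes.

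Targets and other feedback genes were lower, with 7 of 9 detected and medians of 3.43 and 3.09 TPM. Dusp6, a phosphatase that switches off ERK and is a common readout of FGF signalling, led with 27.1 and 31.4 TPM. Flrt3, a membrane protein that binds FGF receptors, followed with 13.3 and 13.6 TPM. The ETS factor Etv5 measured 12.26 and 12.98 TPM and its relative Etv4 2.96 and 2.68 TPM. Il17rd, also known as Sef, an inhibitor (0.38 and 0.50 TPM), and Flrt1 (0.46 and 0.52 TPM) were under the threshold.

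Heparan sulphate genes were broadly present. Of 12 core proteins 11 were detected, led by the glypican Gpc3 (400 and 438 TPM) and the syndecans Sdc1 (38.1 and 41.3 TPM) and Sdc4 (29.7 and 31.5 TPM). Gpc5 was not, with 4 and 2 counts (0.09 and 0.05 TPM). All 11 synthesis and trimming enzymes were detected, the highest by mean being the chain polymerase Ext2 (51.8 and 57.9 TPM), the sulphatase Sulf2 (28.4 and 31.2 TPM) and the sulphotransferase Ndst2 (18.3 and 19.7 TPM). Kl, or alpha-klotho, the co-receptor of FGF23, had 1 and 0 counts, and the FGF binding protein Fgfbp1 0 and 1. Fgfbp3, its relative, was detected at 2.38 and 2.44 TPM. Of the klotho pair, then, Klb was detected and Kl was not.

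**Figure D3:**
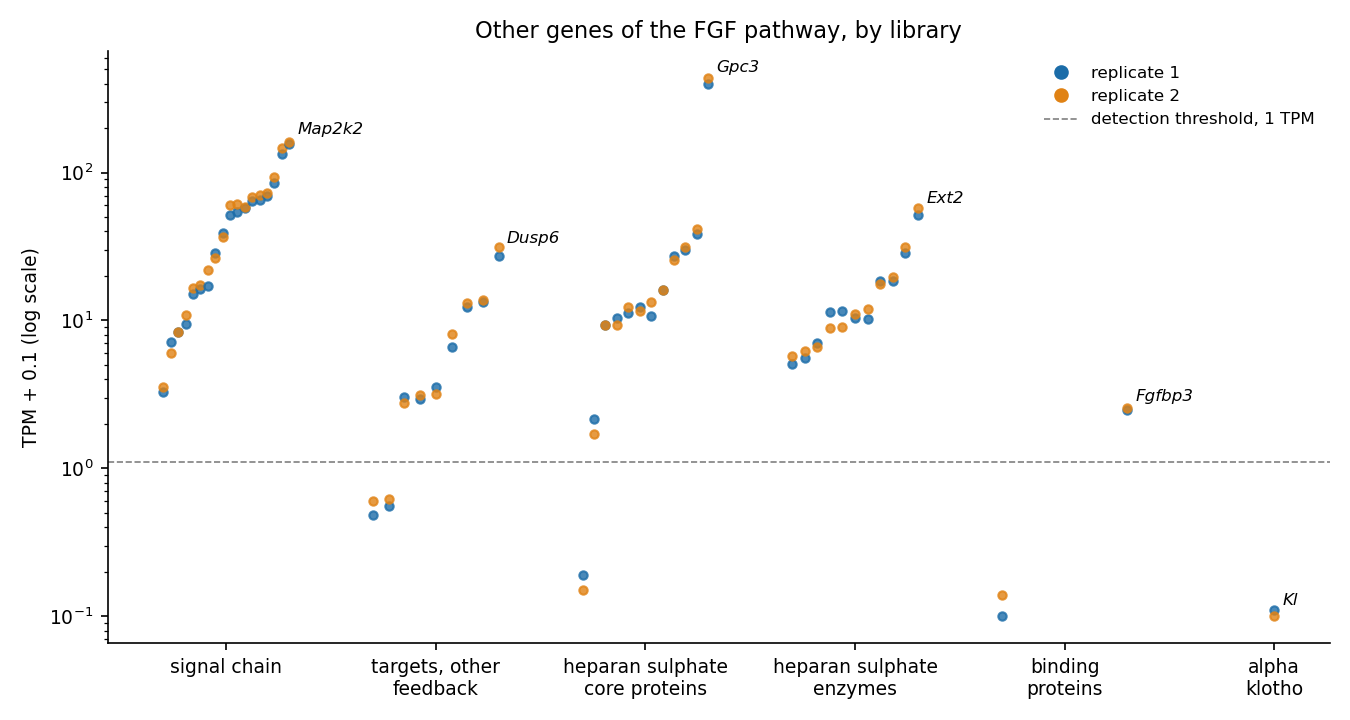
TPM of the 53 other pathway genes in each library, with 0.1 added and on a log axis, grouped by role and ordered by mean within a group; points are libraries and the top gene of each group is named. All 18 signal chain genes and all 11 heparan sulphate enzymes lie above the threshold of 1 TPM, and Kl lies at its foot.

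The pools gave similar levels for the members. For this comparison estimated counts were scaled between libraries with TMM factors, and the 25 members that averaged at least 10 counts were used. Their median log2 ratio of replicate 1 to replicate 2 was -0.04, beside -0.01 over 14418 protein-coding genes that pass the same filter. One member, Fgf8, was at least 2-fold apart, higher in replicate 2, beside 3.07% of those genes. Fgf8 had 6 and 15 counts, and the interval of its log2 ratio, from -3.09 to 0.01, held 0.

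For 7 of the 25 members the 95% exact binomial interval of the ratio left out 0, against 40.7% of all 14418 protein-coding genes that averaged at least 10 counts. That interval covers counting error only and not the variation between pools. Spry4, Spred2 and Spry2 were higher in replicate 1, with log2 ratios of 0.26, 0.25 and 0.19. Frs2, Fgfr4, Fgf13 and Spry1 were higher in replicate 2, with log2 ratios of -0.10, -0.19, -0.25 and -0.39. With DESeq2 size factors 4 members were left, since the intervals of Frs2, Fgfr4 and Fgf13 then held 0. Spry1 and Spry2 thus moved in opposite directions, each by less than 1 log2 unit. The 11 heart muscle markers had a median log2 ratio of 1.25 in the same comparison. None of the 19 members that averaged at least 50 counts was 2-fold apart, beside 0.51% of protein-coding genes past that filter. The part of the heart markers' difference in the ratios of the members was not tested.

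**Figure D4:**
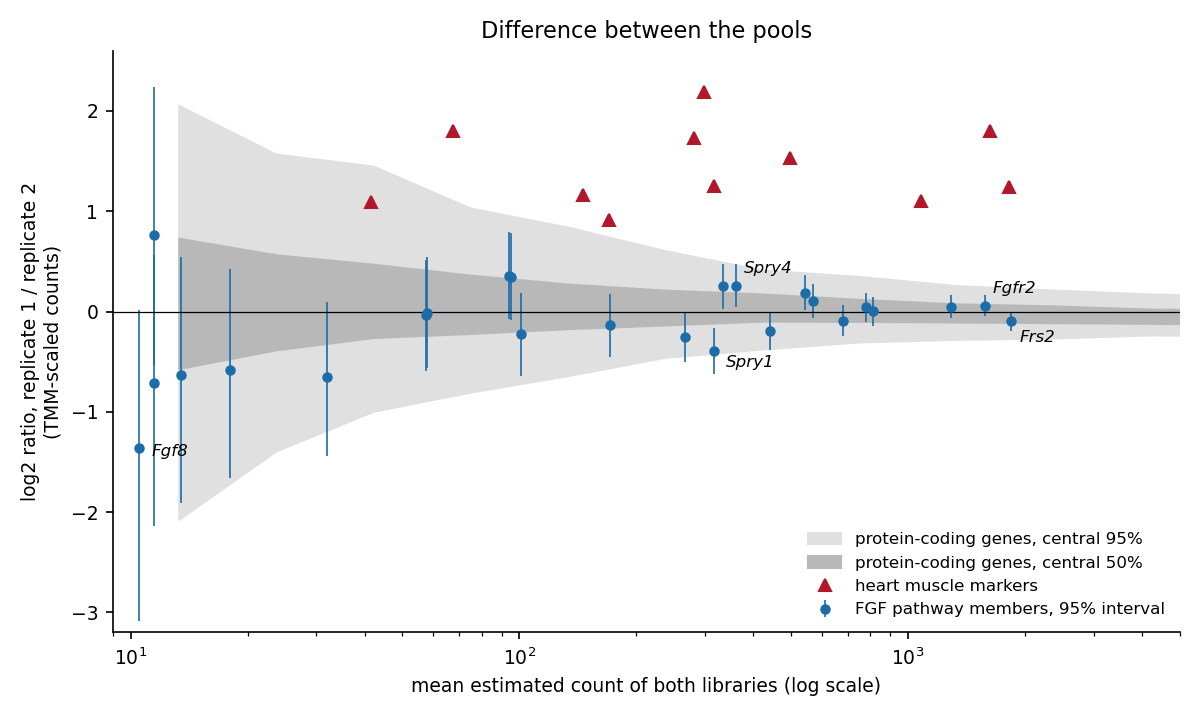
Log2 ratio of replicate 1 to replicate 2 (TMM-scaled counts) against the mean count on a log axis: circles are the 25 members with 95% counting intervals, triangles the 11 heart muscle markers, and grey bands the central ranges of protein-coding genes by count. The members scatter around 0 with a median of -0.04, while the heart markers lie at a median of 1.25.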

How the data were processed

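Total RNA-seq of 2 pools of embryonic liver was used, as 1 gene and 1 transcript table per library. Per the labels, the assembly was mm10, and the notes deposited with the tables name GENCODE M4. No source used here names the aligner or the quantifier, or says whether counting used the strand. Deposited by the authors were estimated counts, TPM and FPKM per gene and transcript. Also deposited were posterior mean TPM, credibility intervals of unstated level, and the percent of a gene's expression on each transcript. TPM covers spike-ins, which took 14.6% of it in replicate 1 and 11.1% in replicate 2.

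Symbols, coordinates, exons and sequences came from GENCODE M21 on GRCm38, matched on identifiers without version. Of the 136 member transcripts all 136 matched, and 116 had the same length in both releases. The members and lists were chosen with earlier results of these data known. All members are accounted for. From the pathway list the text names the 3 highest genes of each group, those under 1 TPM in both libraries, and Etv4, Etv5 and Dusp6. Some results that this rule or the choice of sequences would give are not reported here. From the marker lists it gives counts and the genes needed to check a label.

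Levels were compared within a library in TPM. No p-value is given: with 2 values the smallest that an exact test of signs allows is p = 0.5. Estimated counts were rounded for TMM factors (edgeR 4.0.16, R 4.3.3), with 0.5 counts added before the log2 ratio. On simulated data that step was checked. DESeq2 1.42.0 size factors were an alternative. A count of 0 was given the limit of 3 counts. These limits and the intervals of ratios take in counting error only: without molecular identifiers 1 molecule can give several reads. The counts of the 2 libraries differed by more than sampling noise over the members (chi-square 2.75 per degree of freedom). Exon shares used TPM of annotated transcripts, so unannotated forms are missed. Identities came from global alignments with Biopython. Other steps used Python 3.11.15 and pandas 2.3.3.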

Additional observations from a re-analysis of the deposited data

How the results depend on the processing

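With 17 members detected, other rules gave 13 (threshold of 2 TPM) to 22 (10 or more counts). The receptor sum of 51.8 TPM was 59.4 with spike-ins left out of the scaling, 54.7 by posterior means, 38 in FPKM and 43.6 without Fgfr2-217, an alternative chosen after seeing the data. The ligand sum of 7.97 TPM was 9.14, 10.9 and 5.84 under the first 3 of these. For Sprouty and Spred, 30.6 TPM became 35.1 with spike-ins left out and 22.5 in FPKM. By posterior means 6 neighbouring pairs were told apart in place of 8, and by counts, without intervals, 17. Over 71 alternative values of the fixed pairs none reversed a called order. Leaving out a library or adding a larger TPM could not reverse one, because the rule already needs the same order in both libraries. Protein-coding transcripts alone were not among these settings, and by them Fgfrl1 was above Fgfr1 in both libraries. The 3 pairs not told apart had no called order to reverse. Fgfr3 above Fgfr4 (0.36) and Fgf1 above Fgf2 (5.20) were told apart by estimated counts, which are not scaled for length. By posterior means these log2 ratios were 0.22 and 0.59, beside 0.14 and 2.09 in TPM. In replicate 2 alone the TPM ratio of Fgfr3 to Fgfr4 was -0.05. With no filter on low counts 7 of 36 members were 2-fold apart, beside 9.45% of 21474 protein-coding genes. With an average of at least 50 counts 0 of 19 members were, beside 0.51% of 12468 such genes. The Fgfr1 IIIb share was 2.13% by posterior means. For Fgfr2, IIIb was 30.7% by posterior means, 20.1% by estimated counts and, as an alternative added after seeing the data, 19.3% with transcripts of equal length in both annotations. Leaving out a library gave 27.3% to 27.7% for Fgfr2 and 25.8% to 35.0% for Fgfr3. No paired analysis was possible because there is 1 group. Depth limits the ligands most: 11 of 18 had under 10 counts on average.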
